A study of Mus musculus with 5 samples.

Results

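The genes described are 10 imprinted genes: the long noncoding RNAs H19, Meg3, Rian, Mirg and Kcnq1ot1, and the protein-coding genes Peg3, Plagl1, Mest, Grb10 and Cdkn1c. They were chosen by name from the 57186 genes of the deposited gene tables, and all 10 were found and passed the filter on low counts, as did 16412 genes in all. Their RNA was measured in whole cardiac atria of mice, in 3 libraries from animals heterozygous for the E990G variant of Mrc2 (MRC2 E990G-het, here het, replicates 5, 6 and 7) and 2 libraries from wild-type animals (WT, replicates 7 and 8). Mrc2 encodes a collagen-binding endocytic receptor, and how the variant was introduced is not in the labels used here. The series describes 8 WT and 7 het animals, aged 4 to 10 months, whose atria were snap-frozen, and each library was made with stranded polyA selection from the RNA of 1 atrial pair. The age and sex of each animal are not in the labels used here, and no treatment is named.

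At an imprinted gene mostly or only the copy inherited from one parent is transcribed, for some genes only in certain tissues. In most cases this is because the copies carry different DNA methylation from the egg or the sperm. H19, Meg3, Rian, Mirg and Cdkn1c are transcribed from the maternal copy, and Grb10 from the maternal copy in most tissues outside the brain. Kcnq1ot1, Peg3, Plagl1 and Mest are transcribed from the paternal copy. As a group these genes are known for control of growth before birth, and most fall in level after birth. H19, Kcnq1ot1, Cdkn1c and Peg3 lie on chromosome 7, Meg3, Rian and Mirg on chromosome 12, Mest on chromosome 6, Plagl1 on chromosome 10 and Grb10 on chromosome 11. The libraries do not separate the parental copies, so each value is the sum over both.

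Several of the long RNAs are also host transcripts of microRNAs, and those sequences show what else is read from the loci measured here. By position and strand in RefSeq (GRCm38.p6), 21 microRNA genes with 39 mature sequences lie in the 10 genes: 1 in H19, 2 in Meg3, 3 in Rian, 14 in Mirg and 1 in Mest. The mature sequences were not measured by these polyA libraries. They carry 38 different seeds (bases 2 to 8 from the 5′ end, which pair with target RNAs), and only mmu-miR-453 and mmu-miR-496a-5p, both in Mirg, share one. The examples below, with the seed in capitals, are one or more for each host gene.
mmu-miR-675-5p (H19): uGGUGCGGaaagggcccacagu
mmu-miR-770-5p (Meg3): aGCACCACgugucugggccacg
mmu-miR-370-3p (Rian): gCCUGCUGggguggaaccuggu
mmu-miR-410-3p (Mirg): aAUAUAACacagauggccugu
mmu-miR-453 (Mirg): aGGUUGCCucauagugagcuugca
mmu-miR-496a-5p (Mirg): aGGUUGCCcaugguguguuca
mmu-miR-335-5p (Mest): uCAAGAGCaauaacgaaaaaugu

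The transcripts of Grb10 start at 2 sites and had different shares in the het and WT libraries (below), and its 2 promoter windows in RefSeq are shown for that reason. Each spans 250 bases before to 50 after an annotated start, on the minus strand of chromosome 11. The upstream window holds 45 CpG dinucleotides, more than 98.1% of 32851 mouse promoter windows, and the downstream window holds 9, against a median of 7. Capitals mark TGCCGC, the letters bound by the imprint-protecting zinc finger protein Zfp57 when methylated, or its reverse complement.
Grb10 upstream promoter, chr11:12037371-12037670 (GRCm38.p6, minus strand): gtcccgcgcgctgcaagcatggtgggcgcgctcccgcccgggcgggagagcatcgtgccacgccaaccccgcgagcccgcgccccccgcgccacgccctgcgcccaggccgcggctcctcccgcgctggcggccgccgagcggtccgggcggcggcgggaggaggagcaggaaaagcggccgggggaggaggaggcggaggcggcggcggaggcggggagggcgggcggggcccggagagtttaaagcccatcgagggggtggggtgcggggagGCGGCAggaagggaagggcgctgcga
Grb10 downstream promoter, chr11:12027922-12028221 (GRCm38.p6, minus strand): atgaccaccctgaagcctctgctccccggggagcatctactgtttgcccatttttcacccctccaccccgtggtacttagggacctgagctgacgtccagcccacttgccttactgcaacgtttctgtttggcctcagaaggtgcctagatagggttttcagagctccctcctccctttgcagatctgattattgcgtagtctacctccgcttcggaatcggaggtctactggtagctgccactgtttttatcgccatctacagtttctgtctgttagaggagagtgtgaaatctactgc

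RefSeq gives 12 such windows for 8 of the members. TGCCGC, on either strand, was found in 5 of the 12 windows, in Mest, Plagl1, Grb10 and Meg3, and in 11.6% of all windows. Of these 5, 2 are Mest windows that start 3 bases apart and hold the same matches, so 4 of 11 remain with that stretch counted once. GGGGCCCC, a Plagl1 binding motif, was found in 1 window, that of Peg3, and in 1.08% of all windows. GCCATNTT, a Yy1 motif, was found in 0 of the 12 windows and in 6.05% of all. Of the 12 windows, 10 held more CpG than the median window. These counts describe letters in a window and not binding.

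The libraries held 17784601 to 28353091 expected counts. The atrial cardiomyocyte markers (Nppa, Myl7, Myl4, Sln, Bmp10, Ttn and Actc1) summed to 37306 to 44025 CPM (counts scaled to library size) in het and 56013 to 64059 in WT, so the tissue label was met and the sums did not overlap. The 7 genes did not move alike: Nppa, which held the largest part of the sum, was at 19544 ± 1539 CPM (SD, n = 3) in het and 30492 ± 4751 (SD, n = 2) in WT, Ttn at 3768 ± 350 and 3059 ± 104, and Bmp10 at 2278 ± 243 and 2274 ± 48.7. Markers of fibroblasts summed to 1858 to 2071 CPM in het and 1505 to 1996 in WT, those of skeletal muscle to 802 to 949 and 1348 to 1475, and those of erythroid cells to 2590 to 5275 and 599 to 2227. The sums were also higher in every het library than in both WT libraries for endothelial markers (782 to 841 against 682 to 721 CPM) and macrophage markers (238 to 318 against 217 to 224). In these lists the groups overlapped for Cdh5 and Emcn, and for Cd68, C1qa and C1qb. Ventricular markers summed to 64.8 to 189 CPM in het and 116 to 139 in WT, with Myl2 at 0.999 in het 7 and 77.9 in het 6. White adipocyte markers summed to 150 to 280 and 184 to 306. Most of the skeletal muscle sum came from Ckm (612 ± 81.6 CPM in het, 995 ± 91.4 in WT) and Myl1 (220 ± 24.5 and 391 ± 6.01). None of the 7 cardiomyocyte, 7 fibroblast, 8 skeletal muscle or 5 erythroid genes was at 0 in all libraries. However, 2 of the 8 skeletal muscle genes, Myh4 and Myh2, were under 1 CPM in all. Whether skeletal muscle tissue was present was not tested. All 5 thymus and lung markers were under 1 CPM and 2 of them at 0. The X-inactivation RNA Xist was counted 21.5 times in WT 7 but 6117 to 15280 times elsewhere, and the Y-linked gene Ddx3y 938 times in WT 7 but 0 to 3 times elsewhere. By these RNAs WT 7 reads as male and the other libraries as female, though the labels give no sex. The het group is then all female and the WT group mixed, so sex is not balanced between the groups. Values without WT 7 are given where they matter. The part of these differences in the results below was not tested, and in whole tissue fewer cells of a type cannot be told apart from less RNA per cell.

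In TPM, the deposited unit that is scaled to transcript length and can be compared between genes, the 10 members spanned a wide range. H19, the growth-restraining RNA next to Igf2, had the highest level, with a median over the 5 libraries of 286 TPM (range 197 to 319), and ranked 302nd to 450th of all genes within a library. Meg3 (median 24.2 TPM, range 16.3 to 35.4), Plagl1 (24, 11.2 to 25.9), Cdkn1c (23.0, 20.3 to 28.3) and Peg3 (21.4, 13.99 to 23.1) followed, and the range of each overlapped that of the next. Grb10 (9.84, 7.94 to 12.7) and Rian (8.53, 6.37 to 13.2) overlapped each other. Mest (4.77, 3.86 to 5.87), Mirg (1.31, 0.73 to 3.39) and Kcnq1ot1 (0.24, 0.15 to 0.5) came last, and the range of each lay below that of the gene before it. Kcnq1ot1 is 93092 bases long in its main transcript, so its low TPM stood beside 278 to 411 expected counts per library.

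In the comparison of het with WT atria, 0 of the 10 members passed edgeR's quasi-likelihood test at an adjusted p of 0.05, in either direction, while 5.64% of the 16412 tested genes did. limma-voom also called 0 of the 10, and 2.8% of all tested genes. DESeq2 called 0 of the 9 to which it gave an adjusted p, with Plagl1 nearest (adjusted p 0.0507), and 11.7% of all 11981 genes given one, and it gave none to Mirg. At an unadjusted p under 0.05 there were 2 members, Plagl1 with higher and Mirg with lower values in het, against 24.7% of all tested genes. All het libraries lay above both WT libraries for 1 member (Plagl1; 21.1% of all tested genes) and below both for 2 (Mirg and Cdkn1c; 21.1%), and the groups overlapped for the other 7, while 42.3% of all tested genes had groups that did not overlap. The median log2 fold change was -0.13 over the members and -0.001 over all tested genes, and 3 members had a value above 0 and 7 below. The plot of CPM by library shows these levels.

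**Figure D1:**
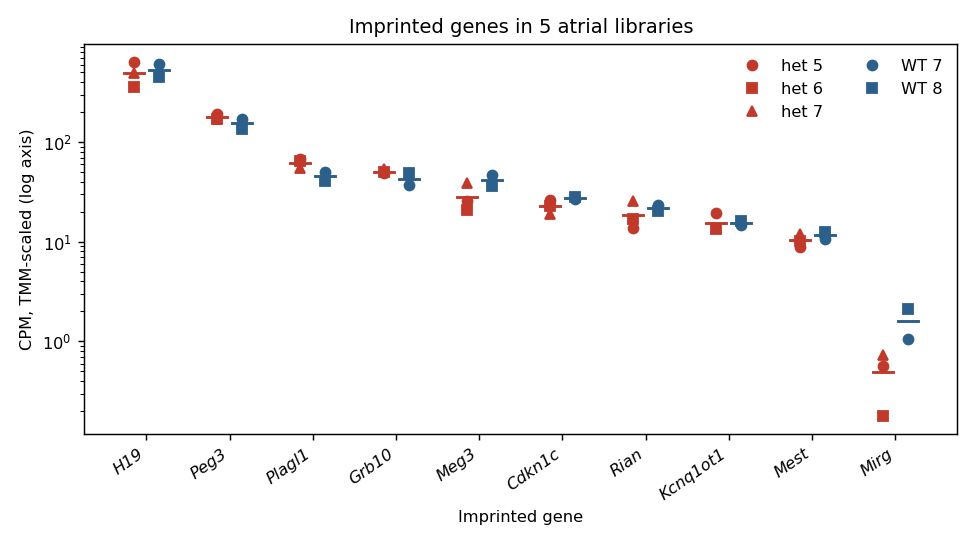
Level of each imprinted gene in each library, in TMM-scaled CPM on a log axis. Each point is 1 library (red het, blue WT, with the shape giving the replicate) and each bar is the group mean. The groups separate for Plagl1, Mirg and Cdkn1c and overlap for the other 7 genes, and H19 is the highest and Mirg the lowest gene.

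Among the long RNAs, H19 was measured at 641, 358 and 494 CPM in het 5, 6 and 7, and at 609 and 453 CPM in WT 7 and 8. The het libraries spanned more than the whole WT range. Its log2 fold change was -0.09 (SE 0.243), with an adjusted p of 0.856 by edgeR. It was 0.14 without WT 7 and 0.10 without het 6, so its sign rested on single libraries.

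Meg3, Rian and Mirg lie in this order on the plus strand of chromosome 12, in the Dlk1-Dio3 domain. Meg3, an RNA that represses the protein-coding genes of the domain on its own chromosome copy, had 25.8, 20.7 and 38.5 CPM in het and 46.6 and 36.3 in WT. Het 5 and 6 were the lowest libraries, and het 7 lay between the WT libraries. The log2 fold change was -0.55 (SE 0.261, edgeR adjusted p 0.254), -0.35 (adjusted p 0.683) without WT 7, -0.36 without het 6 and -0.83 (adjusted p 0.0615) without het 7.

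Rian, host of box C/D small nucleolar RNAs, had 13.6, 16.9 and 25.7 CPM in het and 23.6 and 20.2 in WT. Het 7 was the highest of all libraries and het 5 the lowest. In edgeR its log2 fold change was -0.22 (SE 0.249, edgeR adjusted p 0.640), and it ranged from -0.52 to -0.03 as each library was left out.

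Mirg, host of the largest group of microRNAs above, was counted 12, 4 and 21 times in het and 26 and 36 times in WT, or 0.563, 0.179 and 0.723 CPM against 1.07 and 2.10. All het values were below both WT values. The mean was 0.488 ± 0.28 CPM (SD, n = 3) in het and 1.58 ± 0.734 (SD, n = 2) in WT. The log2 fold change was -1.65 (SE 0.616), the furthest from 0 of the 10, and its edgeR adjusted p was 0.118. It ranged from -2.07, without WT 7, to -1.09, without WT 8. The difference passed an unadjusted p of 0.05 (edgeR p 0.0191) but not the adjusted threshold.

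Ratios within a library compare the 3 RNAs of the domain without a scaling between libraries. The TPM ratio of Rian to Meg3 was 0.263, 0.523 and 0.392 in het and 0.297 and 0.356 in WT, with the WT libraries inside the het range. The ratio of Mirg to Meg3 was 0.054, 0.045 and 0.038 in het and 0.067 and 0.145 in WT, so every het library was below both WT libraries. The mean log2 ratio of Mirg to Meg3 differed by -1.12 between het and WT (exact two-sided permutation test over libraries, p = 0.2), and that of Rian to Meg3 by 0.22 (p = 0.8). The difference in Mirg to Meg3 was -0.56 without WT 8 and -1.68 without WT 7, and that in Rian to Meg3 was -0.02 without het 6. With 3 against 2 libraries there are 10 splits, and 0.2 is the smallest p the exact test allows.

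Kcnq1ot1, the antisense RNA that silences neighbouring genes including Cdkn1c on the paternal chromosome 7, had 19.3, 13.4 and 13.7 CPM in het and 14.7 and 16.2 in WT. Het 5 was the highest library and het 6 the lowest. In edgeR its log2 fold change was -0.004 (SE 0.186, edgeR adjusted p 0.993). Its sign turned with the scaling and the test: it was 0.04 with library size alone and 0.007 with DESeq2. Kcnq1ot1 lies antisense within Kcnq1, a potassium channel gene measured at 72.9 ± 3.76 CPM (SD, n = 3) in het and 77.5 ± 2.31 (SD, n = 2) in WT. Whether strand was used in the counting is not given in the sources used here. If it was not, reads of the pair cannot be told apart.

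Of the coding members, Plagl1, a zinc finger transcription factor that regulates other imprinted genes, had 67.5, 64.3 and 54.6 CPM in het and 50.4 and 40.5 in WT. All 3 het libraries were above both WT libraries, with a gap between het 7 and WT 7 smaller than the spread within het. The mean was 62.1 ± 6.74 CPM (SD, n = 3) against 45.5 ± 6.98 (SD, n = 2). The log2 fold change was 0.45 (SE 0.145, edgeR p 0.00873, adjusted p 0.0803), and it ranged from 0.31 without WT 8 to 0.62 without WT 7. When every gene with a count was tested, with 31569 genes of which 7% were called, Plagl1 passed (log2 fold change 0.50, adjusted p 0.0194) and Meg3 passed in the other direction (-0.49, adjusted p 0.0218).

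Peg3, a zinc finger protein linked to maternal behaviour and fetal growth, had 191, 171 and 172 CPM in het and 172 and 137 in WT. WT 8 was low, and WT 7 lay within the het range. In edgeR its log2 fold change was 0.20 (SE 0.141, edgeR adjusted p 0.404), 0.38 (adjusted p 0.160) without WT 7 and 0.06 without WT 8.

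Grb10, an adaptor that dampens insulin and IGF receptor signalling, had 48.5, 49.7 and 53.2 CPM in het and 37.3 and 48.5 in WT. Here WT 7 was the low library, and WT 8 was level with het 5. The log2 fold change was 0.24 (SE 0.140, edgeR adjusted p 0.328), 0.06 without WT 7 and 0.45 (adjusted p 0.0904) without WT 8.

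Cdkn1c, the cyclin-dependent kinase inhibitor p57, had 26.3, 23.0 and 19.2 CPM in het and 26.6 and 28.2 in WT. The het libraries were all below both WT libraries, but het 5 and WT 7 were close. In edgeR its log2 fold change was -0.26 (SE 0.154, edgeR adjusted p 0.314), and it ranged from -0.38 without het 5 to -0.15 without het 7.

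Mest, a hydrolase of the endoplasmic reticulum, had 8.87, 10.2 and 11.99 CPM in het and 10.8 and 12.4 in WT. Het 5 and 6 were lowest, and het 7 lay between the WT libraries. The log2 fold change was -0.16 (SE 0.192, edgeR adjusted p 0.649), and it ranged from -0.29 without het 7 to -0.04 without WT 8. Its 3′ end overlaps that of Copg2 on the other strand.

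The libraries differed in how counts depended on gene length and GC content, and a fit with these trends removed called 0.0427% of all genes in place of 5.64%, and again 0 of the 10 members. In that fit Plagl1 was at 0.40 (SE 0.134, edgeR adjusted p 0.210), Meg3 at -0.53 (adjusted p 0.394) and Mirg at -1.41 (adjusted p 0.348). Cdkn1c moved from -0.26 to 0.07 and H19 from -0.09 to 0.07, and Peg3 from 0.20 to -0.002. The median was -0.06 over the members and 0.03 over all tested genes.

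The authors' deposited table, a comparison of het with WT atria with no library named, also lists all 10 members. It gives Kcnq1ot1 the largest log2 fold change of the 10, 1.14 (their interval 0.367 to 1.91, p 0.00225, adjusted p 0.330), and Meg3 the next, 0.77 (0.196 to 1.35, p 0.01001, adjusted p 0.510). In the authors' deposited table Peg3 is at 0.36, Mest at 0.17, and the other 6 between -0.23 (Plagl1) and -0.02 (Mirg), all of these with an adjusted p of 0.99998. Of its 14927 genes, 0% have an adjusted p under 0.05 and 5.6% an unadjusted one. The interval given there for Peg3, 0.00744 to 0.723, excludes 0 although its p is 0.208, and the test score is 0 for most members. Both are as in a test against a minimum fold change, so these p-values and shares may not be like those of edgeR. Beside the edgeR values of the 5 libraries, Meg3, Plagl1, Mest and Grb10 have the opposite sign there, and Kcnq1ot1 is far from its value of -0.004. Whether the 5 libraries are among those behind the authors' deposited table is not given in the sources used here, so the difference between the 2 sources was not tested.

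**Figure D2:**
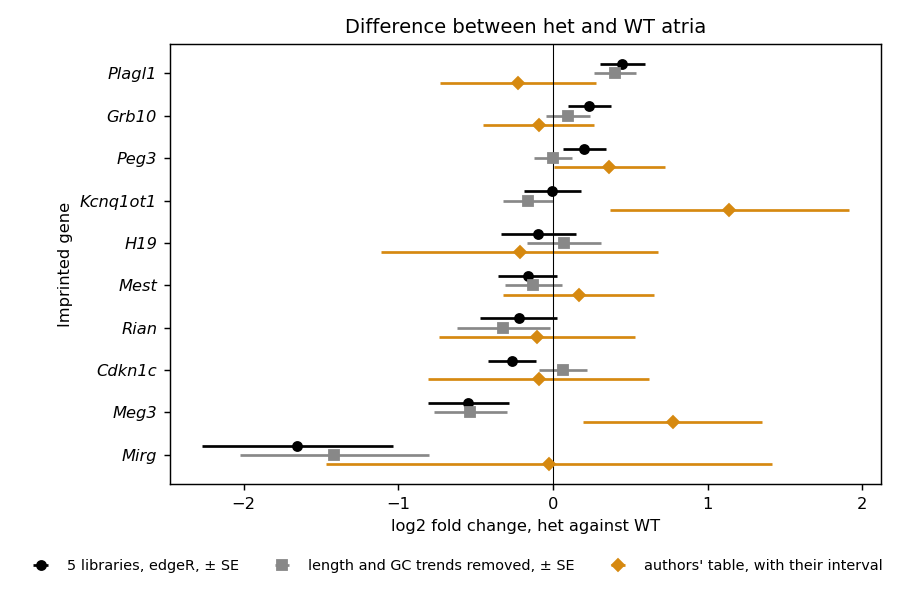
Log2 fold change of het against WT for each imprinted gene. Black circles give the edgeR fit of the 5 libraries and grey squares the fit with length and GC trends removed, both with bars of 1 SE, and orange diamonds the authors' deposited table with the interval it lists. Plagl1 at 0.45 and Mirg at -1.65 end the order of the black circles, and the orange values for Kcnq1ot1 and Meg3 lie at 1.14 and 0.77.

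The transcript tables split each gene over its annotated transcripts, from 5 for Cdkn1c and Peg3 to 64 for Meg3 and 69 for Rian, and give each transcript's isoform percent, its share of the gene's TPM. With all 5 libraries the largest differences in the leading share were those of Grb10 (32.6 points) and Kcnq1ot1 (-29.5), and that of Kcnq1ot1 was the larger without het 6 (-44.1 against 33.3) or WT 7 (-48.6 against 46.8). The leading Grb10 transcript ENSMUST00000093321 held 89.3, 87.0 and 89.4% in het 5, 6 and 7, and 70.2 and 41.8% in WT 7 and 8. The 3 het libraries lay within a few points of each other, and both WT libraries lay below them and far from each other. The mean was 88.6 ± 1.38% (SD, n = 3) in het and 56.0 ± 20.1% (SD, n = 2) in WT, a difference of 32.6 points (exact two-sided permutation test, p = 0.2). It was 18.3 points without WT 8 and 46.8 without WT 7.

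ENSMUST00000109654 held most of the rest of Grb10, at 7.40, 6.27 and 2.74% in het and 20.7 and 57.1% in WT. In expected counts, the leading transcript had 938 of 1033 in het 5, 1026 of 1111 in het 6, 1472 of 1544 in het 7, 674 of 911 in WT 7 and 362 of 830 in WT 8. The share in WT 8 was 43.6% (exact Clopper-Pearson 95% interval 40.2 to 47.1%), that in WT 7 74.0% (71.0 to 76.8%), and the lowest het share, in het 5, 90.8% (88.9 to 92.5%). These intervals cover counting error only, and not the error of dividing reads between transcripts.

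In the GENCODE M21 annotation of GRCm38, these 2 Grb10 transcripts share 15 exons. Their start sites lie 9430 bases apart, one in each of the promoter windows printed above. The leading transcript starts in the upstream window with 45 CpG and also has an internal exon, its exon 5, of 165 bases, which the other lacks. The coding sequence is 1788 bases against 1623, or 55 residues longer. The isoform percent combines the start site and this exon, and the tables do not say which of them the reads distinguished.

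Leading transcripts of all 10 members were compared. The groups did not overlap for 3 of them, Grb10, Cdkn1c and H19, all with the higher share in het, while 24.4% of 13760 genes had groups that did not overlap. Cdkn1c ENSMUST00000037287 held 49.9, 50.8 and 45.0% in het and 38.7 and 38.1% in WT, a difference of 10.1 points, or 3.90 as a share of counts. H19 ENSMUST00000136359 held 86.3, 79.3 and 80.9% in het and 78.7 and 70.5% in WT, with the highest WT value just under the lowest het value. That difference was 7.59 points, 3.5 without WT 8 and 11.7 without WT 7. A separation of the group means at least as wide as that of Grb10 was found in 5.46% of the 13760 genes, and in 0.918% of the 8819 with a mean of at least 10 CPM. Grb10 was the member with the widest difference in these data, and the shares make no allowance for that choice.

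Kcnq1ot1 shows how the unit bears on a transcript share. The 93092-base transcript ENSMUST00000185789 held 96.9, 99.6, 96.8, 98.8 and 100% of the gene's expected counts in het 5, 6, 7, WT 7 and WT 8, but 37.4, 80.6, 36.3, 61.9 and 100% of its TPM. The 2155-base transcript ENSMUST00000249637 held the rest, from 12.8, 1.33, 12.8, 4.27 and 0 expected counts. The group difference in the leading share was -29.5 points of TPM (exact two-sided permutation test, p = 0.4) and -1.67 points of counts. Fewer than 13 reads in a library thus set up to 63.7% of the gene's TPM, and the gene's TPM of 0.5 in het 5 and 0.15 in WT 8 carries the same split.

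**Figure D3:**
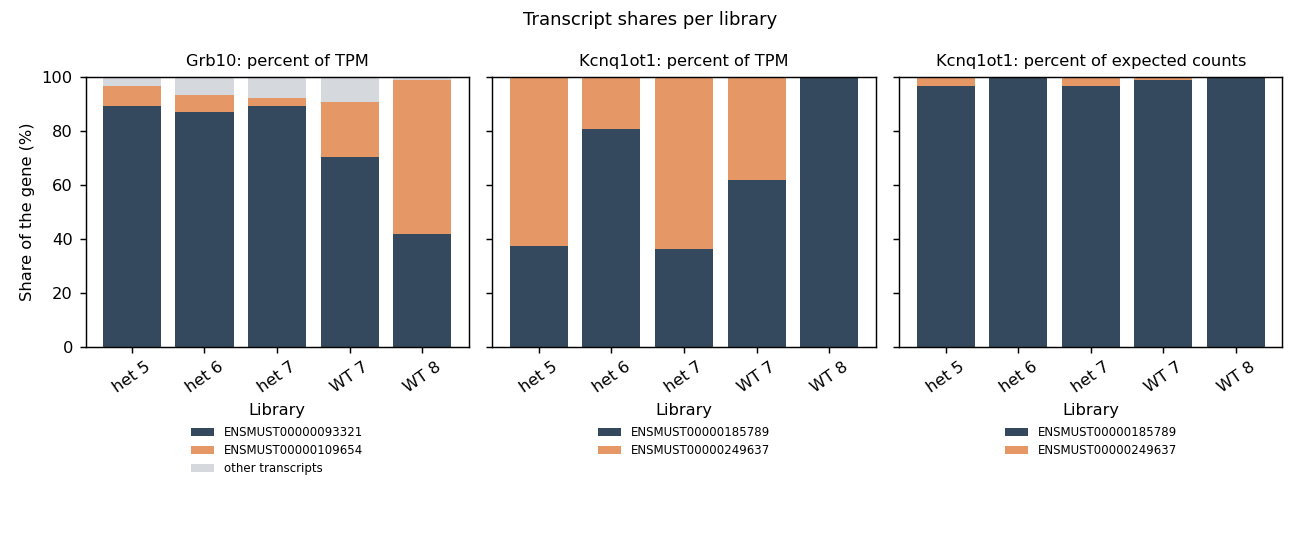
Share of each gene held by its transcripts, in percent, per library. The left panel gives Grb10 by TPM, the middle panel Kcnq1ot1 by TPM and the right panel Kcnq1ot1 by expected counts, with the leading transcript in dark blue. The dark share of Grb10 is 87.0 to 89.4% in het and 41.8 and 70.2% in WT, and that of Kcnq1ot1 is at least 96.8% of counts in every library.

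Other imprinted genes were counted from lists of paternally and maternally expressed genes. The list names do not say that these genes are imprinted in atria, and the copy transcribed here was not measured. Of 31 listed paternally expressed genes, 30 were matched to the tables, 24 were tested, and of these 0 were called higher and 3 lower, with a median log2 fold change of -0.003, and 2.66% of all genes were called lower. DESeq2 called 1 higher and 2 lower (11.7% of all genes given an adjusted p, in either direction), and limma-voom 0 in either direction (2.8%). An unadjusted edgeR p under 0.05 was found for 7 of the 24, against 24.7% of all genes. The 7 include Rasgrf1, with 23, 21 and 34 expected counts in het and 11 and 4 in WT. It passed the filter only through the het libraries, where it was high. Dlk1, a transmembrane protein related to Notch ligands, is from the same domain as Meg3. It had 0, 1 and 4 expected counts in het and 17 and 18 in WT (log2 fold change -3.59, SE 0.906, edgeR adjusted p 0.0423). Only the WT libraries reached the filter's count minimum of 10, so Dlk1 was tested only through the group where it was high. The count of 3 called lower includes it, as does the count of 7 with an unadjusted p under 0.05. Ndn, necdin, was at 13.9 ± 1.69 CPM (SD, n = 3) in het and 22.5 ± 5.70 (SD, n = 2) in WT (-0.70, edgeR adjusted p 0.0438). Snrpn, which shares its transcript with Snurf so that their reads are not separable, was at 87.9 ± 10.8 and 125 ± 1.49 CPM (-0.51, edgeR adjusted p 0.0457). With the length and GC trends removed, their edgeR adjusted p-values were 0.116, 0.0928 and 0.122, with 0 of the 3 called and 0.0427% of all genes. Fits with 1 het library left out also called few of all genes. They called 0 higher and 1 lower without het 5, 5 and 6 without het 6, and 0 and 0 without het 7. Dlk1 and Snrpn were not called by edgeR in any fit with 1 library left out (adjusted p 0.0633 to 0.159 and 0.0665 to 0.163). Ndn was called only without WT 8, and was at -0.41 (adjusted p 0.267) without WT 7. Igf2, the growth factor gene beside H19, was at 173 ± 12.9 CPM in het and 209 ± 25.5 in WT (-0.27, edgeR adjusted p 0.238).

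Of 25 tested maternally expressed genes, 0 were called in either direction by edgeR (5.64% of all genes), DESeq2 (11.7%) or limma-voom (2.8%), and the median was -0.05. An unadjusted edgeR p under 0.05 was found for 8 of the 25, against 24.7% of all genes. The 8 include Kcnk9, with 5, 3 and 1 expected counts in het and 26 and 9 in WT. It passed the filter, whose minimum is scaled to library size, only through the WT libraries, where it was high. Gnas, which encodes the stimulatory G protein alpha subunit, had the highest level, at 846 ± 43.6 CPM (SD, n = 3) in het and 1035 ± 54.5 (SD, n = 2) in WT (-0.29, edgeR adjusted p 0.207; -0.02 with the length and GC trends removed). Cd81, a tetraspanin, was at 283 ± 3.70 and 322 ± 18.5 CPM (-0.18, edgeR adjusted p 0.402), and its sign turned to 0.02 with the length and GC trends removed.

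Of 22 factors that maintain imprints or shape chromatin, 3 were called higher and 0 lower, with a median of 0.18, and 2.99% of all genes were called higher. DESeq2 called 5 higher and 0 lower (11.7% of all genes given an adjusted p, in either direction), and limma-voom 2 higher and 0 lower (2.8%). An unadjusted edgeR p under 0.05 was found for 6 of the 22, against 24.7% of all genes. All het libraries lay above both WT libraries for 8 of the 22 and below both for 0, against 21.1% of all genes each way. Atrx, a chromatin remodeller that binds imprinted control regions, was at 122 ± 7.99 CPM (SD, n = 3) in het and 71.1 ± 3.39 (SD, n = 2) in WT (0.77, SE 0.128, edgeR adjusted p 0.0229). Its log2 fold change ranged from 0.72 to 0.83 as each library was left out, and was 0.83 without WT 7. Cbx5, heterochromatin protein 1 alpha, was at 0.53 (edgeR adjusted p 0.0381), and Smchd1, a chromatin protein that represses imprinted clusters and the inactive X, at 0.51 (0.0439). With the trends removed these were 0.53, 0.28 and 0.22, and 0 of the 22 were called. On log2(TPM + 1) limma-trend called none of the 3 (adjusted p 0.141, 0.153 and 0.968), and Smchd1 was at 0.02. The call of Smchd1 was also lost with upper-quartile scaling (edgeR adjusted p 0.0519), a mean of at least 1 CPM (0.0518) and limma-voom (0.0564). Fits with 1 het library left out called few of all genes. They called 0 higher and 1 lower without het 5, 5 and 6 without het 6, and 0 and 0 without het 7. Atrx was not called without het 5, het 6 or het 7 (edgeR adjusted p 0.0563 to 0.0789), and Cbx5 (0.0748 to 0.107) and Smchd1 (0.0779 to 0.131) without any of these or WT 7. Of 19 long noncoding RNAs in a further list, edgeR called 1 higher and 0 lower, and the median was -0.08. DESeq2 and limma-voom each called 1 higher and 0 lower. An unadjusted edgeR p under 0.05 was found for 4 of the 19, against 24.7% of all genes. This list was drawn up as outside imprinted loci, but it holds Snhg14, from the imprinted locus of Snrpn (-0.31, edgeR adjusted p 0.421). The gene called by edgeR, Oip5os1, had 375 ± 31.1 CPM in het and 245 ± 30.7 in WT (0.61, edgeR adjusted p 0.0352), and 0.31 with the trends removed (adjusted p 0.320). It was not called without het 5, het 6, het 7 or WT 7 (edgeR adjusted p 0.0714 to 0.116).

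**Figure D4:**
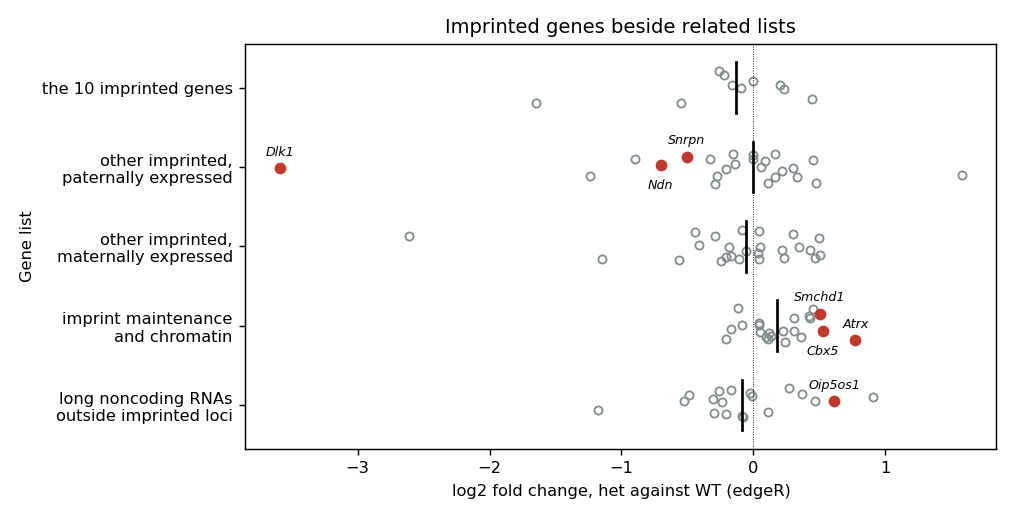
Log2 fold change of het against WT from edgeR for the 10 imprinted genes and 4 related lists. Each circle is a gene, filled red where the adjusted p was under 0.05, and each black bar is a list's median. No imprinted member is filled, and the medians lie between -0.13 for the 10 members and 0.18 for the imprint maintenance list. The list labelled as outside imprinted loci includes Snhg14, from the imprinted locus of Snrpn.

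By distance between centred log2 CPM over the 5 libraries, the genes most like Meg3 among 14168 were Mfsd9 (0.15), Gm10575 (0.21) and Odad4 (0.22), and its neighbour Rian was at 0.57. Those most like H19 were Gm6563 (0.12), Gm11423 (0.12) and Fpgs (0.15). These distances rest on 5 libraries and are descriptions.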

How the data were processed

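Atrial RNA of 3 het and 2 WT mice was analysed, with groups taken from the sample titles. Per the submitters' processing notes, the build was GRCm39, and the tools named, without versions, are RSEM, STAR, SAMtools, edgeR, limma, Trim Galore, MultiQC and FastQC. The deposited RSEM tables hold expected counts, which were not normalized, TPM, which the authors scaled to length and library total, and isoform percent. The authors' deposited table holds p-values, log2 fold changes and a moderated score (t). Its t is 0 for 7 of the members, as in a test against a minimum fold change, a step not given in the sources used here.

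Rounding gave whole-number counts. Genes passing edgeR's default filter (count minimum 10) were scaled by TMM and tested with the robust quasi-likelihood test (R 4.3.3, edgeR 4.0.16), with Benjamini-Hochberg adjustment over all 16412 and a threshold of 0.05. CPM are TMM-scaled. Each SE is the size of the log2 fold change over the root of its F statistic. The biological coefficient of variation was 0.18. Total expected counts of 17784601 to 28353091 set the precision. In data simulated for het against WT (16071 genes), 51% of log2 changes of 1 and 98% of changes of 2 were recovered, with 9 of 158 calls false. With a length trend added to the simulated het libraries only (15937 genes), 114 of 270 calls of the same test were false, and 6 of 161 with the length trend removed. That trend was thus set as a difference between the groups. Every simulated gene had the same biological coefficient of variation, 0.18, unlike the genes of the data. Nothing says that the libraries of a group came from separate litters or days, so p-values measure the spread between these libraries.

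Alternatives were other scalings and filters, DESeq2 1.42.0, limma-voom with and without quality weights and limma-trend on log2 TPM with a pseudocount of 1 or 0.1 (limma 3.58.1), length and GC trends per library entered as offsets (mgcv 1.9.3, GC known for 97.9% of tested genes), and each library left out. RefSeq promoters and microRNAs and GENCODE M21 are of GRCm38 and gave sequences and transcript structure only. The 10 members and all lists were chosen with earlier results of these data known. Named were the members, up to 4 called genes of each list with the smallest p (or the 2 of highest level where none was called), Igf2 and Kcnq1 as neighbours of members, chosen after their values were seen, and the 3 genes most like Meg3 and H19.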

Additional observations from a re-analysis of the deposited data

How the results depend on the processing

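Of the 10 members, 0 were called in either direction under every alternative that gave them an adjusted p but one (DESeq2 gave Mirg none): with every gene with a count tested, 1 was called higher and 1 lower. The counts over all genes moved far more. For 490 higher and 436 lower in edgeR, the counts higher were 795 with library size alone, 1304 with every gene with a count (907 lower), 869 with DESeq2, 237 with limma-voom (222 lower), 0 with quality weights (0 lower), 0 on log2(TPM + 1) (1 lower), 2 on log2(TPM + 0.1) (3 lower), 8 with the length trend removed (8 lower) and 6 with length and GC trends removed (1 lower). Leaving out 1 library gave 0 to 588 higher and 0 to 290 lower, with the lowest counts without a het library. For the 4 higher and 3 lower genes of the lists, library size alone gave 7 higher, every gene with a count 9, DESeq2 7, limma-voom 0 lower, and quality weights, both TPM settings and both trend settings 0 in each direction, with 0 to 7 higher and 0 to 3 lower without 1 library. H19 turned to 0.0697 with length and GC trends removed, and ranged from -0.32 to 0.14 with 1 library left out. Kcnq1ot1 turned to 0.0388 with library size alone, 0.0442 with every gene with a count, 0.00734 with DESeq2, 0.00858 with quality weights, 0.18 and 0.58 on TPM, and ranged from -0.190 to 0.0902 with 1 library left out. With length and GC trends removed Peg3 turned to -0.00154 and Cdkn1c to 0.0666, and Cd81 to 0.00929 with the length trend and 0.0179 with both. The cause was not tested. Leading transcript shares ranged, with 1 library left out, from -1.20 to 7.32 points for Meg3, -3.6 to 18.4 for Mest, -23.2 to 3.39 for Mirg, -10.8 to 1.82 for Peg3 and -4.65 to 13.5 for Rian, and that of Plagl1 turned to 2.03 points as a share of counts. The log2 ratio of Rian to Meg3 ranged from -0.0178 to 0.479. Mirg and Dlk1 have no value under a mean of at least 1 CPM, which removes them. No paired analysis was possible because the labels give no pairing of het with WT libraries. The fits without a WT library leave 1, assumed to vary like the het libraries. Depth limits Mirg, at 4 to 36 counts, and Dlk1, at 0 to 18.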
